A study of Mus musculus with 77 samples.

Results

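Hemoglobin and red cell genes of the retina are described here in the mouse model of oxygen-induced retinopathy (OIR). They comprise *Hba-a1*, *Hba-a2*, *Hbb-bt*, *Hbb-bs*, *Alas2* and *Slc4a1*, 6 genes picked by name. A probe belonged to a gene when its transcript matched that symbol in the RefSeq gene table. Probes for 5 of the 6 genes were found, each by 1 probe printed once per array, among 55681 probes covering 21154 named genes. No probe matched *Hbb-bs*, so it has no value.

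Retinas came from 77 C57BL/6 mice, and both retinas of a mouse were pooled. In the OIR group, pups breathed 75% oxygen from postnatal day 7 (P7) to P12 and room air afterwards. Control pups breathed 21% oxygen throughout. Retinas were taken on P12 (13 OIR and 12 control mice), P17 (13 and 12) or P28 (13 and 14), so the P12 animals were sampled at the end of the oxygen exposure. Blood was drawn by cardiac puncture before the eyes were removed, and no rinsing of the retinal vessels is described in the sources used here. Litter was not given for single mice, so p-values treat pups as independent.

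Each array carried a retina and the Universal Mouse Reference RNA in different dyes. The labels give Cy5 to the retina, but on 77 of 77 arrays Cy3 was the brighter dye for the rod genes *Gnat1*, *Pde6b* and *Sag*, with *Sag* at a log2 Cy3 over Cy5 of 4.18 to 9.37. Cy3 was therefore read as the retina, opposite to the labels, and every ratio below is Cy3 over Cy5. Under the labelled dyes the sign of each ratio, and of each difference between groups in a ratio, would turn. Differences in spread and correlations between ratios would keep theirs. Values of a channel alone would belong to the other RNA. The arrays lay on 11 slides scanned on 4 days. An array had 13801 to 34328 probes well above background, with group medians of 20074 to 21122 on P12 and P17 against 32192.5 and 32916 on P28.

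Adult hemoglobin is built of alpha chains, encoded by the neighbouring copies *Hba-a1* and *Hba-a2*, and of beta chains, encoded in C57BL/6 mice by *Hbb-bt* and *Hbb-bs*. *Alas2* encodes the enzyme that starts heme synthesis in the red cell lineage, and *Slc4a1* encodes band 3, the anion exchanger of the red cell membrane. Young red cells (reticulocytes) still hold globin mRNA, and globin transcripts have also been described in neurons and other cells. In OIR, hyperoxia obliterates capillaries of the central retina, and the return to room air is followed by the growth of new vessels. In whole retina, more cells of a type and more RNA per cell cannot be told apart.

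The promoters are shown because the 3 measured globins shared their direction on P12 and P17 and *Alas2* leads the heme pathway that serves them. RefSeq (build GRCm38.p6) gave a promoter for 5 of the 6 genes, and none was listed for *Slc4a1*. The 200 bases before the transcription start are printed 5′ to 3′ for *Hba-a1* (chr11:32283472-32283671 on the plus strand), *Hba-a2* (chr11:32296292-32296491 on the plus strand), *Hbb-bt* (chr7:103813924-103814123 on the minus strand) and *Alas2* (chrX:150547217-150547416 on the plus strand). Capitals mark CACCC, the letters CCAAT, the letters TATAA and GATA motifs, which were searched as AGATAA or AGATAG or TGATAA or TGATAG. Both strands were searched, and matches may overlap.
Hba-a1: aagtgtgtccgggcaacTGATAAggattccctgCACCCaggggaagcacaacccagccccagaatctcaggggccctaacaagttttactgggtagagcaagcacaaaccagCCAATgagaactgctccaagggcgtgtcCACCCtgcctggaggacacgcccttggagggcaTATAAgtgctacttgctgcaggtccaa
Hba-a2: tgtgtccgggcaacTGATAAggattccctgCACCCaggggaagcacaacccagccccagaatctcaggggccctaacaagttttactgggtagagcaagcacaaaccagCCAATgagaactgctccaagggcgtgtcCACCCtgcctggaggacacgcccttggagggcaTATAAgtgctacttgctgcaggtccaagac
Hbb-bt: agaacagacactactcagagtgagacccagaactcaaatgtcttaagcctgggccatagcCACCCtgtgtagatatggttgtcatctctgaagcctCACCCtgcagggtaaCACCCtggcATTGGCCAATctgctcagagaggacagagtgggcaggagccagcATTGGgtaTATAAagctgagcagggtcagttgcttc
Alas2: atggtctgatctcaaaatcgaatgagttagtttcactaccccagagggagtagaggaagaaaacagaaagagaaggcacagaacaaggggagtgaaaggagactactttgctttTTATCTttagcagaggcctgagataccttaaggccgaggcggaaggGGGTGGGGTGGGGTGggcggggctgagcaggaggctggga

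Over the 250 bases before the start, which reach beyond the printed 200, *Hba-a1* and *Hba-a2* were identical at 247 of 247 compared bases at a shift of 3 bases. In the printed windows both held all 4 motifs. *Hbb-bt* held CACCC and CCAAT and also TATAA but no GATA motif, and so did *Hbb-bs*. Over the 250 bases *Hbb-bt* and *Hbb-bs* matched at 127 of 249 compared bases (51%) at a shift of 1 base. These comparisons allowed no gaps, so inserted or lost bases lower the share. *Alas2* held CACCC and GATA motifs only. Of 32851 promoter windows of the same length, 45.5% held CACCC, 29.3% CCAAT, 18.5% TATAA and 21.4% a GATA motif. The first 3 of these occurred together in 2.05% and all 4 motifs in 0.536%. A motif match is a description of the letters in the window.

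In the retina channel *Hba-a1* and *Hba-a2* were well above background on 77 of 77 arrays, *Hbb-bt* on 74, *Alas2* on 36 and *Slc4a1* on 29, and none was saturated. In the reference channel the same counts were 73, 77, 38, 0 and 11. Levels are given as the offset ratio, the log2 of retina over reference after background correction with an offset of 50 and loess normalization. That offset pulls the ratios of dim spots towards 0, so it understates differences of *Alas2* and *Slc4a1*. *Hbb-bt*, whose reference spot was often dim, had smaller ratios too. On P12 its mean was 0.36 in OIR mice and 0.84 in controls. In the deposited ratio, the authors' log2 ratio without that offset, these means were 2.89 and 4.03. *Hba-a1* and *Hba-a2* are near-identical copies and their probes may each have measured both.

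On P17 both alpha globins were higher in the OIR retinas, by about the same amount. *Hba-a1* ranged from 1.34 through a median of 3.18 to 4.22 in the OIR group and from 0.77 through 1.74 to 1.97 in controls. *Hba-a2* ran from 2.89 through 4.32 to 6.02 in OIR mice against 2.56 through 3.05 to 3.58. The groups overlapped little, since 11 of 13 OIR mice for *Hba-a1* and 10 of 13 for *Hba-a2* lay above the highest control. The difference was 1.38 ± 0.25 (SE) on the log2 scale for *Hba-a1*, 2.61-fold (adjusted p = 0.00259), and 1.37 ± 0.29 for *Hba-a2*, 2.59-fold (adjusted p = 0.0113). Thus 2 of 5 measured members passed the test, both higher, while 1.14% of all probes passed and 0.81% were higher.

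The beta globin *Hbb-bt* lay from 0.57 through 2.05 to 2.88 in the P17 OIR mice and from 0.36 through 0.91 to 1.71 in controls. The groups separated in part, with 8 of 13 OIR mice above the highest control. Its difference of 0.84 ± 0.25 did not pass the adjustment (adjusted p = 0.126). *Alas2* was dim, from 0.05 through 0.30 to 0.73 in OIR mice and from -0.06 through 0.11 to 0.22 in controls, and 7 of 13 OIR mice exceeded all controls. The *Alas2* probe was well above background on the arrays of 9 of the 13 OIR retinas and in 3 of the 12 controls, and its difference of 0.23 ± 0.07 had an adjusted p of 0.107. *Slc4a1* did not share the direction of the globins, but its probe was well above background on only 2 of 13 OIR and 3 of 12 control arrays. It spanned -0.10 to 0.11 in OIR mice and -0.00494 to 0.16 in controls, 8 of 13 OIR mice lay below the lowest control, and the difference was -0.07 (adjusted p = 0.154).

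**Figure D1:**
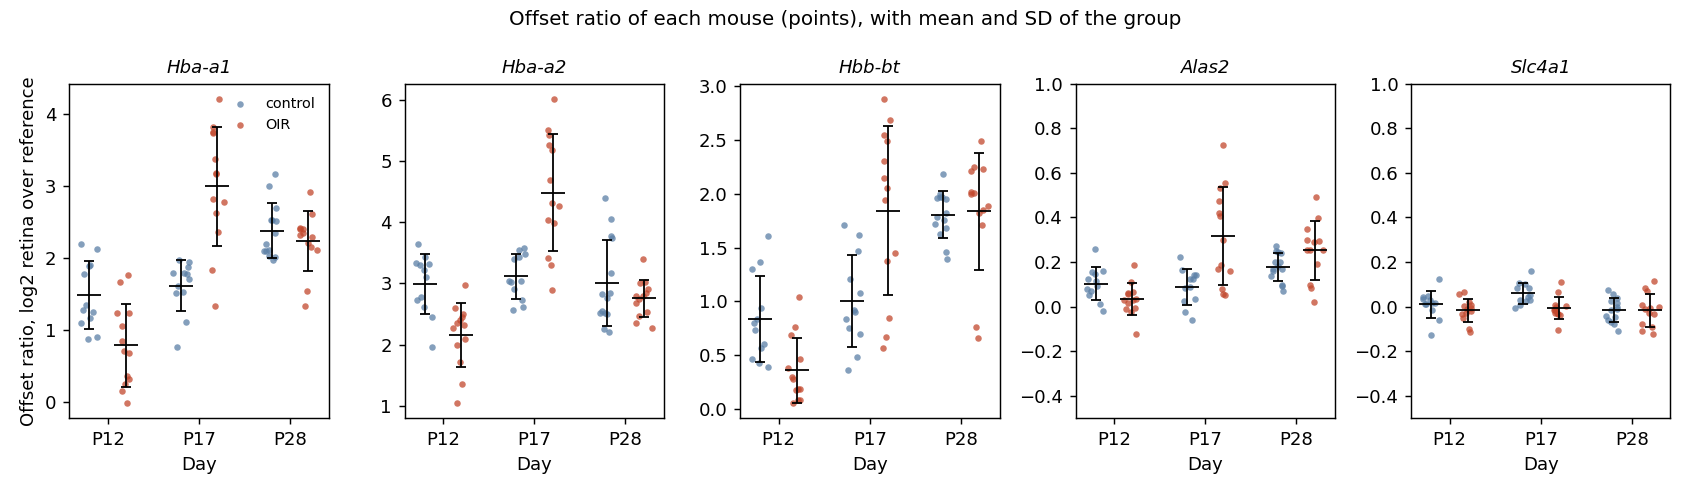
Offset ratio (log2 of retina over reference, y axis) of the 5 measured genes in each of 77 mice, by day and oxygen group, with 1 point per mouse. The P17 OIR mice reach 4.22 for *Hba-a1* and 6.02 for *Hba-a2*, whereas *Slc4a1* stays near 0 in every group.

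The slide and the choice of channel bear on these P17 calls. Of 10 slides with P17 arrays, 6 held both groups, and on 6 of those 6 the OIR mean was higher for *Hba-a1* (by 0.87 to 1.94), *Hba-a2* (0.48 to 1.73), *Hbb-bt* (0.70 to 1.20) and *Alas2* (0.12 to 0.44). With slide as a block the sizes were similar, 1.37 for *Hba-a1* and 1.24 for *Hba-a2*, but neither passed (adjusted p = 0.0504 and 0.061), and 1.5% of probes were called. From the retina channel alone, where 3.11% of probes were called and 1.63% were higher, 4 of 5 members were higher in the OIR group, *Hba-a1* by 1.75, *Hba-a2* by 1.77, *Hbb-bt* by 1.32 and *Alas2* by 0.64 (adjusted p = 5.77e-05, 1.25e-05, 0.00191 and 0.00833). The deposited ratio, which has no offset, gave 1.17 for *Hba-a1*, 1.29 for *Hba-a2*, 0.46 for *Hbb-bt* and 1.71 for *Alas2*, and of these *Hbb-bt* missed the threshold (adjusted p = 0.641), where 2.64% of probes were called.

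On P12, at the end of hyperoxia, the globins stood lower in the OIR mice but no member passed the adjusted test. *Hba-a2* ran from 1.04 through 2.32 to 2.97 in OIR mice and from 1.96 through 3.16 to 3.65 in controls, and the control median exceeded 13 of 13 OIR mice. *Hba-a1* ran from -0.01 through 0.71 to 1.76 against 0.88 through 1.32 to 2.20, and *Hbb-bt* from 0.06 through 0.28 to 1.04 against 0.39 through 0.77 to 1.61. For *Hba-a1* 8 and for *Hbb-bt* 9 of 13 OIR mice were below the lowest control. The differences were -0.69 ± 0.21 for *Hba-a1*, -0.83 ± 0.20 for *Hba-a2* and -0.48 ± 0.14 for *Hbb-bt* (adjusted p = 1.0, 0.617 and 1.0). Limma called 0 of 5 members at the adjusted threshold, beside 0.0216% of all probes. At an unadjusted p under 0.05 there were 4 of 5 members, beside 1741 of 55681 probes.

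From the retina channel alone the P12 difference of *Hba-a2* was -0.92 and passed (adjusted p = 0.00229, 0.0718% of probes called), and it passed with array weights too (-0.94, 0.0377% called). Of 7 slides that held both P12 groups, the OIR mean was lower on 6 for *Hba-a2* and on 5 for *Hba-a1* and *Hbb-bt*. *Alas2* lay between -0.12 and 0.26 in all P12 mice, with a difference of -0.07 that did not pass. Its probe was well above background on arrays of 0 of the 13 OIR and 3 of the 12 control mice. Both groups lay mostly at background, so no useful smallest fold can be given. In the deposited ratio, without the offset, the *Alas2* means were 0.44 in OIR mice and 1.60 in controls, and this difference did not pass either. *Slc4a1* differed by -0.03, with no mouse of the OIR group outside the control range on the low side.

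On P28 no member differed past the threshold, and the groups overlapped to different degrees. *Hba-a1* ran from 1.33 through 2.32 to 2.91 in OIR mice and from 1.98 through 2.28 to 3.17 in controls. Of 13 OIR mice, 6 lay above the highest control and 1 below the lowest for *Alas2*, and 4 and 2 for *Hbb-bt*. *Hba-a2* had medians of 2.79 in both groups and *Hbb-bt* medians of 2.0 and 1.81. The differences were -0.14 for *Hba-a1* (95% interval -0.45 to 0.16), -0.25 for *Hba-a2* (-0.67 to 0.17), 0.03 for *Hbb-bt* (-0.28 to 0.34) and 0.07 for *Alas2* (-0.01 to 0.15). No member of 5 passed, with or without adjustment, and 0.0611% of all probes were called by limma. Of 9 slides with P28 arrays, 3 held both groups, with 11 OIR mice and 8 controls. There the OIR mean was higher on 3 of 3 slides for *Hba-a1* (by 0.17 to 0.25), *Hbb-bt* (0.10 to 0.20) and *Alas2* (0.01 to 0.14). For *Hba-a2* it was higher on 2 of 3 (-0.06 to 0.18), as for *Slc4a1*. The sign for *Hba-a1*, *Hba-a2* and *Hbb-bt* turned under some of the other processing choices, whose values are given with the processing.

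**Figure D2:**
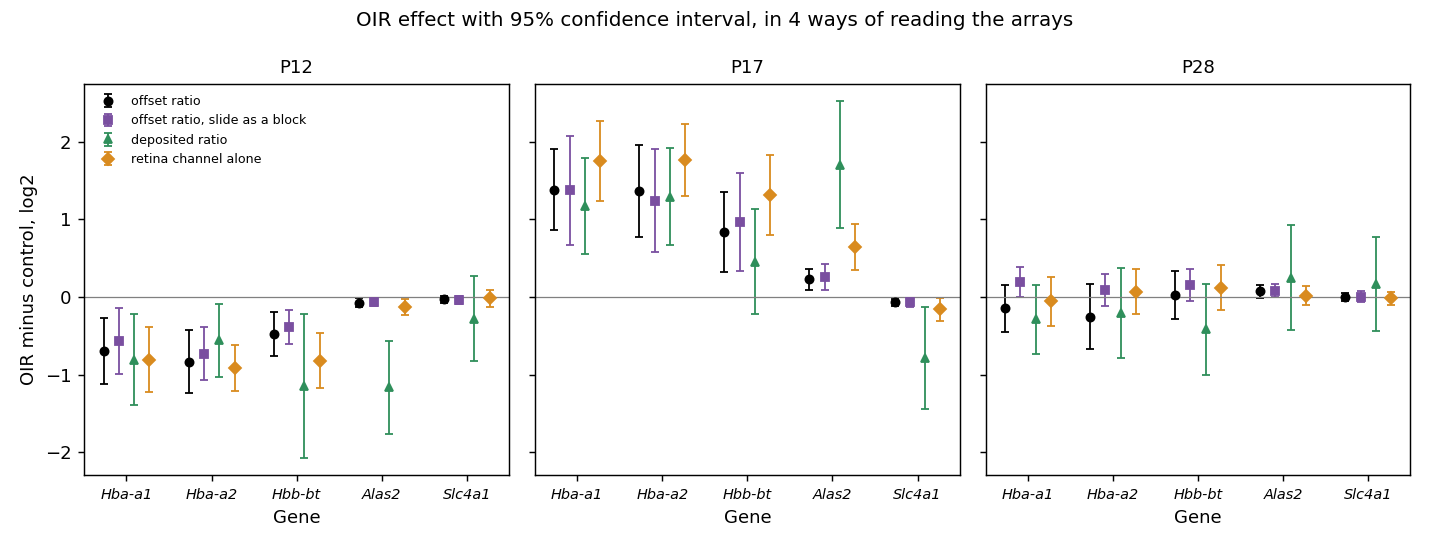
OIR minus control difference (log2, y axis) with its 95% interval for the 5 measured genes (x axis) on each day, from the offset ratio, the same with slide as a block, the deposited ratio and the retina channel alone. On P17 both alpha globins have a positive difference in the 4 readings, from 1.17 to 1.75 for *Hba-a1* and from 1.24 to 1.77 for *Hba-a2*.

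The OIR effect itself changed between days. From P12 to P17 it rose by 2.08 ± 0.30 for *Hba-a1* (adjusted p = 1.06e-06), 2.20 ± 0.34 for *Hba-a2* (7.59e-06), 1.32 ± 0.27 for *Hbb-bt* (0.00243) and 0.30 ± 0.07 for *Alas2* (0.00975). These 4 of 5 members stand beside 0.487% of all probes called in that comparison, 0.444% upwards. With slide as a block these 4 genes passed as well (1.94, 1.96, 1.31 and 0.31), beside 0.943% of probes. From P17 to P28 the effect fell by 1.53 for *Hba-a1* (adjusted p = 0.00143) and by 1.62 for *Hba-a2* (0.00512), 2 of 5 members beside 0.278% of probes, 0.244% downwards. *Hbb-bt* (-0.81, adjusted p = 0.207) and *Alas2* (-0.16, 0.305) did not pass. In the deposited ratio the rise of *Hbb-bt* from P12 to P17 was 1.60 and did not pass (0.144). From P12 to P28 limma called 0 of 5 members, beside 0.0395% of probes. At an unadjusted p under 0.05 there was 1 member, beside 3442 of 55681 probes.

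From P12 to P17 the globins rose in the OIR group, and no member passed in the controls. In the controls limma called 1.28% of probes. There 1 member (*Slc4a1*) had an unadjusted p under 0.05, as did 4577 of 55681 probes. *Hba-a1* changed there by 0.13 and *Hba-a2* by 0.12. In the OIR mice *Hba-a1* rose by 2.21 ± 0.21, 4.63-fold, *Hba-a2* by 2.33 ± 0.24, 5.02-fold, *Hbb-bt* by 1.48 ± 0.19, 2.79-fold, and *Alas2* by 0.28 ± 0.05 (adjusted p = 9.85e-14, 2.68e-12, 6.45e-09 and 7.97e-06). That was 4 of 5 members, against 3.42% of all probes called and 1.95% upwards.

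Comparisons with P28 carry a further limit, because the P28 arrays lay mostly on other slides and had more probes above background. In the OIR mice *Hba-a1* fell by 0.76 and *Hba-a2* by 1.73 from P17 to P28 (adjusted p = 0.00164 and 2.14e-08), 2 of 5 members where 40.6% of probes were called and 19.5% fell. From P12 to P28 *Hba-a1* rose by 1.45, *Hba-a2* by 0.60, *Hbb-bt* by 1.47 and *Alas2* by 0.22, 4 of 5 members where 39.3% of probes were called and 20.5% rose. In controls *Hba-a1* rose by 0.76 and *Hbb-bt* by 0.80 from P17 to P28, and *Slc4a1* fell by 0.08, 3 of 5 members beside 13.4% of probes. From P12 to P28 *Hba-a1* rose by 0.90 and *Hbb-bt* by 0.97 in controls, 2 of 5 members beside 23% of probes, 11.9% upwards.

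With slide as a block the OIR changes of the alpha globins stayed past the threshold. From P17 to P28 *Hba-a1* fell by 0.77 and *Hba-a2* by 1.28 (adjusted p = 0.0218 and 0.000114), and *Alas2*, not called without the block, fell by 0.15 (0.0477), where 17.2% of probes were called. From P12 to P28 *Hba-a1* rose by 1.35, *Hba-a2* by 0.97 and *Hbb-bt* by 1.08 (adjusted p = 1.77e-05, 0.00166 and 2.17e-05), *Alas2* lost its call (0.13, 0.0943), and 16.3% of probes were called. In controls with the block *Hba-a1* and *Hbb-bt* rose by 0.64 and 0.60 from P17 to P28 and by 0.82 and 0.71 from P12 to P28, beside 14.5% and 16.6% of probes, and *Slc4a1* lost its call (adjusted p = 0.122).

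The deposited ratio gave other values for these changes. In OIR mice from P17 to P28 *Hbb-bt* changed by -0.01 in the offset ratio but fell by 1.46 in the deposited ratio (adjusted p = 0.000791), where 44.3% of probes were called. From P12 to P28 its rise of 1.47 became 0.17 without a call (adjusted p = 0.726), the rise of *Hba-a1* became 0.82 (0.0111) and that of *Hba-a2* -0.02 without a call, where 42.8% of probes were called. In controls the changes from P17 to P28 turned to -0.08 for *Hba-a1* and -0.59 for *Hbb-bt*, where 19.7% of probes were called, and those from P12 to P28 to 0.29 and -0.55, where 28.4% were. The part of array brightness in these changes was not tested.

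The spread between mice was wide for the globins in the OIR group on P17. There the SD of the offset ratio was 0.83 for *Hba-a1*, 0.96 for *Hba-a2* and 0.79 for *Hbb-bt*, against 0.36, 0.37 and 0.43 in controls and a median of 0.07 over all probes. Of 55681 probes, 244, 102 and 292 respectively had a larger SD in that group. The mean absolute deviation from the group mean, scaled for the group size, was larger in the P17 OIR mice by 0.41 for *Hba-a1*, 0.50 for *Hba-a2*, 0.33 for *Hbb-bt* and 0.13 for *Alas2*. None of these passed the adjustment (adjusted p = 0.425, 0.403, 0.425 and 0.403), although 4 of 5 members had an unadjusted p under 0.05, as did 6124 probes, and 0% of probes were called. On P28 the deviations of *Hba-a2* differed by -0.37 between OIR mice and controls (adjusted p = 0.262, 0.00359% of probes called), with an SD of 0.31 in OIR mice and 0.70 in controls. The control values differed by slide. On the 3 slides with both P28 groups, 8 controls ran from 2.20 to 2.84 (SD 0.24) and 11 OIR mice from 2.27 to 3.02 (SD 0.24). On the other slides, which held a single P28 group, 6 controls ran from 2.50 to 4.39 and 2 OIR mice from 3.0 to 3.41.

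In a mouse of the P17 OIR group ratio and channel parted. Its retina channel was the brightest of its group for *Hba-a1* (log2 signal 11.8) and *Hba-a2* (14.1). Its reference channel was the brightest too, at 8.02 and 10.3, where the other 12 mice reached at most 6.82 and 8.85. Its *Hba-a2* ratio of 2.89 was the lowest of the group. The mouse at 6.82 and 8.85 lay on the same slide and had an *Hba-a2* ratio of 3.41. In the other groups with arrays on that slide, the highest *Hba-a2* reference signal lay there too. It was 7.14 in P12 OIR mice, 8.40 in P12 controls, 7.75 in P17 controls and 8.37 in P28 controls. The part of the slide in this was not tested.

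**Figure D3:**
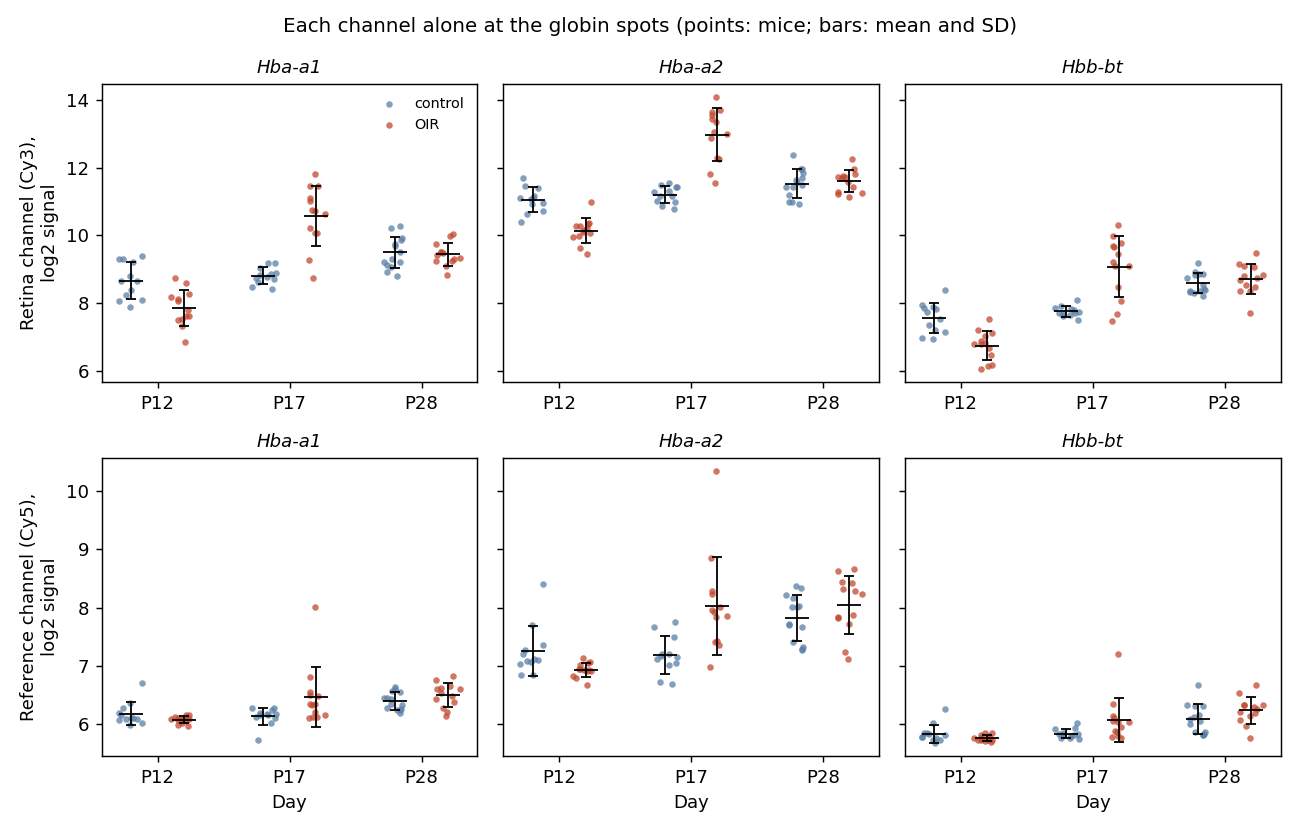
Log2 signal (y axis) of the retina channel (upper panels) and the reference channel (lower panels) at the spots of *Hba-a1*, *Hba-a2* and *Hbb-bt*, by day (x axis), with 1 point per mouse and bars for the mean and SD of each group. In the retina channel of the P17 OIR mice *Hba-a2* reaches 14.1, and the mouse at 10.3 in the reference channel stands apart from its group.

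The reference RNA was the same on all arrays, so its channel has no biological groups. On P17 it was nonetheless brighter at the *Hba-a2* spot in OIR mice by 0.85 (unadjusted p = 0.00228 and adjusted p = 1.0 by limma), and by 0.33 at *Hba-a1* and 0.24 at *Hbb-bt*. Across 77 mice, deviations from the group mean in the reference channel correlated with those in the retina channel at r = 0.48 for *Hba-a1*, 0.66 for *Hbb-bt* and 0.43 for *Slc4a1* (permutation test, adjusted over 5 genes, p = 0.0017, 5e-05 and 0.00075), with Spearman coefficients of 0.36, 0.64 and 0.41 (0.0035, 5e-05 and 0.0012). Without the 2 mice farthest from the median r was 0.37, 0.66 and 0.41. *Hba-a2* gave r = 0.35 (adjusted permutation p = 0.022) but a Spearman coefficient of 0.18 (0.15), and *Alas2* gave 0.27 and 0.21, neither of which passed (0.054 and 0.089). The source of the shared signal was not tested.

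Globin levels of single mice were compared within groups. Over 77 mice, as deviations from each group's mean, *Hba-a1* and *Hbb-bt* correlated at r = 0.81 and a Spearman coefficient of 0.78 (permutation test, adjusted over 10 pairs, p = 5e-05 for both), and at r = 0.77 without the 2 mice farthest from the median. *Hba-a1* and *Hba-a2* correlated at r = 0.49 and a Spearman coefficient of 0.43 (adjusted permutation p = 0.00042 and 0.0012), and at 0.44 without those 2. *Hbb-bt* and *Alas2* gave r = 0.76 and a Spearman coefficient of 0.69 (adjusted permutation p = 5e-05 for both), and 0.75 without the 2 farthest. *Hba-a1* and *Alas2* gave r = 0.52 and a Spearman coefficient of 0.41 (adjusted permutation p = 0.00023 and 0.0018), and 0.46 without them. The smallest unadjusted p these permutations allow is 1e-05.

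The pair *Hba-a2* and *Hbb-bt* depended on the quantity. Their offset ratios gave r = 0.13 and a Spearman coefficient of 0.08 (adjusted permutation p = 0.61 and 0.84), whereas r was 0.67 in the retina channel alone, 0.59 in the deposited ratio and 0.55 within slides. *Hba-a2* and *Alas2* gave r = 0.04 (adjusted permutation p = 0.98) and 0.65 in the retina channel. In the deposited ratio all 3 globin pairs correlated (r = 0.74, 0.76 and 0.59), but the correlations of *Alas2* with *Hba-a1* and *Hbb-bt* were -0.09 and -0.07. None of the 4 pairs with *Slc4a1* passed. Within single groups of 12 to 14 mice r ran from 0.26 to 0.96 for *Hba-a1* and *Hbb-bt*. It ran from -0.39 (P28 OIR) to 0.83 (P28 controls) for *Hba-a1* and *Hba-a2*, and from -0.55 (P28 OIR) to 0.50 (P17 OIR) for *Hba-a2* and *Hbb-bt*, which were below 0 in 4 of 6 groups. All values come from shared arrays, so array brightness may enter the pairs, and its part was not tested.

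**Figure D4:**
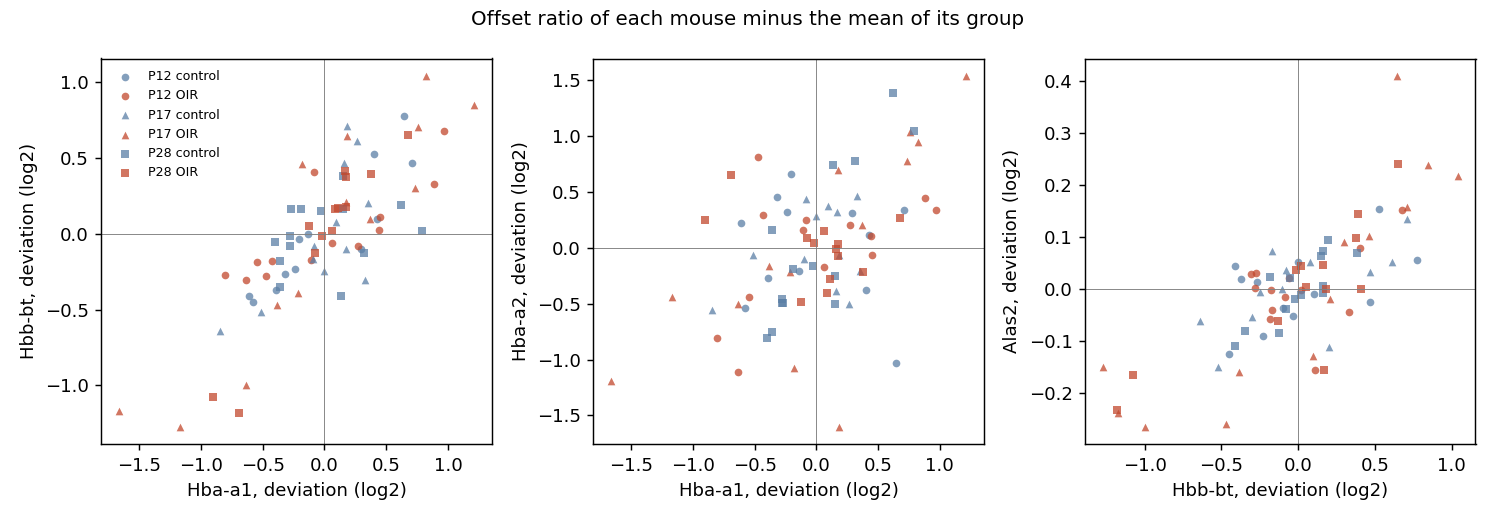
Deviation of each mouse's offset ratio from its group mean (log2) for *Hba-a1* against *Hbb-bt*, *Hba-a1* against *Hba-a2* and *Hbb-bt* against *Alas2*, 1 point per mouse, with shape for the day and colour for the oxygen group. The points lie closest to a line for *Hba-a1* and *Hbb-bt* (r = 0.81) and scatter most for *Hba-a1* and *Hba-a2* (r = 0.49).

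Other beta globin probes of the array, *Hbb-b1* and *Hbb-b2*, carry gene names of another strain haplotype, and near-identical copies make their origin uncertain. On P17 *Hbb-b2* ran from 0.09 through 0.75 to 1.74 in OIR mice and from 0.04 through 0.24 to 0.58 in controls. Their differences were 0.30 for *Hbb-b1* and 0.52 for *Hbb-b2* (adjusted p = 0.226 and 0.181), and 0.73 and 1.01 in the retina channel (0.00312 and 0.00391). The embryonic globins were at background nearly throughout, with *Hba-x* and *Hbb-bh2* well above it on 0 of 77 arrays, *Hbb-y* on at most 2 and *Hbb-bh1* on 13.

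Red cell genes ranged from undetected to detected on all arrays. Well above background on most of the arrays were 12 of 13 heme synthesis genes, 8 of 20 membrane genes, 4 of 11 erythroid regulators and 15 of 19 enzyme and maturation genes. *Hemgn*, *Zfpm1*, *Lmo2*, *Ldb1*, *Ermap*, *Aqp1* and *Epb41* were so on 77 of 77 arrays, *Sptb* on 76, *Gypc* on 70, *Dmtn* and *Tspo2* on 67, *Car1* on 42 and *Tal1* on 38. At the other end *Cldn13* was well above it on 0 of 77 arrays, the erythroid regulators *Klf1* on 1 and *Gata1* on 3, *Rhag* and *Kel* on 1 each and *Epb42* on 5. Of lists of red cell genes, the P17 comparison called 1 of 13 heme synthesis genes, 0 of 20 membrane genes, 2 of 11 erythroid regulators and 1 of 19 red cell enzyme and maturation genes. Across all 21154 named genes 1.65% were higher and 0.652% lower.

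*Slc25a37*, the mitochondrial iron importer mitoferrin, rose by 0.97 ± 0.12 on P17 (adjusted p = 1.7e-05) and by 0.35 on P28 (0.0467), where it was the only gene of these lists called and lost its call in 20 of 27 fits that left out a mouse. With slide as a block the P28 value was 0.27 and did not pass (0.0876). Without the block 0.137% of all named genes were higher on P28. *Lmo2*, a transcription cofactor of blood and vessel cells, rose by 0.35 on P17 (0.00216). *Tal1*, its partner factor, named here after its value was seen, rose by 0.27 (0.0354), a call lost on leaving out a mouse in 13 of 25 fits. *Car2*, a carbonic anhydrase of red cells that Müller glia also make, fell by 0.65 (adjusted p = 0.0317), but its call was lost in 15 of 25 such fits and its deposited ratio differed by only -0.18 (0.900). The P17 medians of the lists were -0.01 for heme synthesis, 0.01 for membrane, 0.09 for regulators and 0.03 for enzymes. The OIR effect on *Slc25a37* rose by 0.91 from P12 to P17 (1.72e-06) and fell by 0.62 to P28 (0.00705), and that on *Lmo2* rose by 0.59 from P12 to P17 (0.000616).

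Across ages *Aqp1*, the water channel of red cells and other tissues, rose in both groups (each change of this paragraph passed limma's test), by 1.19 from P12 to P17 and 1.70 to P28 in controls and by 1.57 and 2.22 in OIR mice. Of all probes 1.28% were called from P12 to P17, 13.4% from P17 to P28 and 23% from P12 to P28 in controls. In OIR mice these shares were 3.42%, 40.6% and 39.3%. There 6 of 20 membrane genes rose and 5 fell from P17 to P28. *Slc25a37* rose by 0.88 from P12 to P17 in OIR mice, and the antioxidant enzyme gene *Prdx2* fell by 0.28 in controls, a call lost in 5 of 24 fits that left out a mouse. In controls *Tfrc*, the transferrin receptor, rose by 0.68 and the membrane gene *Dmtn* by 0.53 from P12 to P28, while *Lmo2* fell by 0.56. From P17 to P28 *Tfrc* rose by 0.60, *Tmcc2* by 0.52 and *Urod*, of heme synthesis, by 0.62 in controls, and *Lmo2* fell by 0.36. In OIR mice over the same interval *Tmcc2* rose by 0.80, *Alas1*, the housekeeping counterpart of *Alas2*, rose by 0.60, and *Lmo2* and *Tal1* fell by 0.61 and 0.62. *Epb41*, protein 4.1 of the membrane skeleton, fell by 1.20 from P12 to P28 in OIR mice, whereas the retina channel alone gave -0.05 and no call. *Sptb*, beta spectrin, rose by 0.84 there and by 0.88 and 0.57 in controls to P28, and its sign turned in the deposited ratio.

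**Figure D5:**
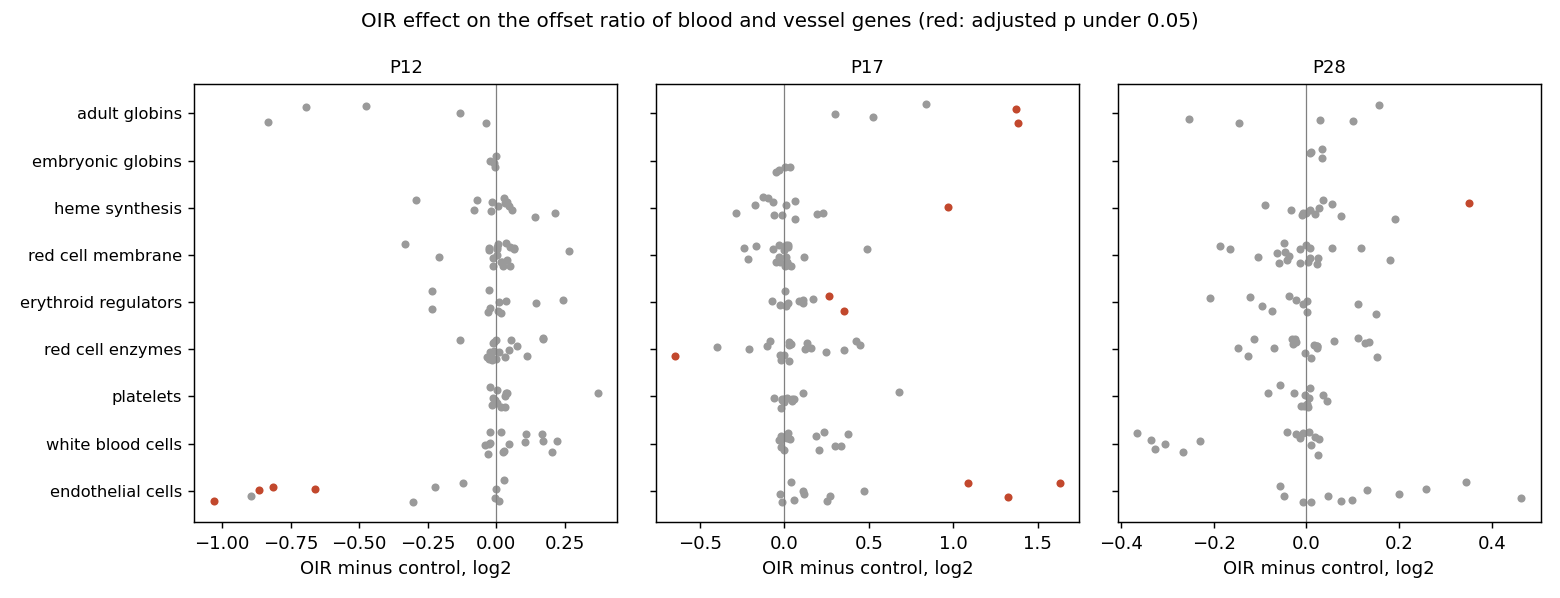
OIR minus control difference (log2, x axis, on its own scale each day) of the genes of 9 lists (y axis) on P12, P17 and P28, with 1 point per gene and red for an adjusted p under 0.05. On P17 the adult globins have a median of 0.84, while the heme synthesis, membrane, regulator and enzyme lists have medians of -0.01 to 0.09.

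Markers of other cells were read beside the globins. Some endothelial genes differed on the same days. On P12 4 of 12 endothelial genes were lower in OIR mice (*Cd93* -1.03, *Egfl7* -0.86, *Cd34* -0.81 and *Ramp2* -0.66), beside 0.0567% of all named genes, and the call of *Ramp2* was lost on leaving out a mouse in 18 of 25 fits. On P17 3 of 12 were higher (*Cd93* 1.63, *Cd34* 1.33 and *Egfl7* 1.09), beside 1.65% of all named genes. The effect rose from P12 to P17 for these 4 genes and *Cdh5*, 5 of 12 beside 0.96% of all named genes, all of them named after their values were seen. The summed retina signal of that list was 4811 to 8259 in P17 OIR mice and 2827 to 5041 in controls. Of platelet and white cell genes, 0 of 12 and 0 of 15 were called on P17, where 1.65% of all named genes were higher and 0.652% lower. Their summed signals were 781 to 887 against 755 to 822 for platelets and 1071 to 2216 against 1072 to 1819 for white cells. Well above background on most of the arrays were 3 of 12 platelet and 3 of 15 white cell genes. *Ppbp* of platelets was so on 0 of 77 arrays, *Pf4* on 44 and *Gp1bb* on 62, and of white cell genes *Ptprc* on 12, *Camp* on 68 and *Cd3e* and *Elane* on 77. No rod gene of 10 was called on any day, and the rod median was -0.42 on P28. Of all named genes 0.0567%, 0.652% and 0.00473% were lower on P12, P17 and P28, and 0%, 1.65% and 0.137% higher. The part of blood, vessels or cell composition in the globin differences was not tested.

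The genes most like the globins were found by correlating each of 21149 genes with the mean deviation of *Hba-a1*, *Hba-a2* and *Hbb-bt* over 77 mice. *Gfap*, the intermediate filament of astrocytes and stressed Müller glia, came first at r = 0.62, then *Ngfr* at 0.59. *Mapt*, *Fam163b* and *Dlgap3* each reached 0.59, *Slc29a4* and *Ndufa4l2* 0.57, and *Ppp1r1b*, *Gnb3* and *P4htm* 0.56. *Ggt1* was lowest at -0.53, with *Steap2* and *Fmr1nb* at -0.52. In the retina channel alone these likenesses were weaker, at 0.33 for *Gfap*, 0.01 for *Ngfr* and -0.02 for *P4htm*. *Hbb-b2* ranked 11th with the ratio (r = 0.56) and reached 0.80 in the retina channel. The correlations share arrays and are given as a description.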

How the data were processed

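Retinal RNA of 77 mice was hybridised with a reference RNA on 2-colour Agilent arrays. The authors deposited scanner files (median signal intensities and processed signals of each dye and a log10 ratio, written by Feature Extraction 10.7.3.1 per the file headers) and a table of normalized log2 ratios, which matched the log2 of Cy3 over Cy5 processed signals within 0.001 at every single-spot probe. For the offset ratio, median intensities were background corrected (normexp, offset 50) and normalized by loess within arrays in limma 3.58.1 (R 4.3.3), control spots had weight 0, and outlier spots (0.290 to 0.582% per array) were left out. Spots of a probe were averaged. The scale, centring and direction of the deposited log2 table are thus settled, except that the labelled dyes oppose the rod genes.

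Groups were compared per day with limma, changes of the OIR effect and of age in a fit over 6 groups, and spread as absolute deviations from the group mean, scaled for the group size. Benjamini-Hochberg adjustment ran over 55681 probes with a threshold of 0.05. For genes with several probes, the probe brightest in the retina channel stood for the gene. Correlations used 100000 permutations within groups. The oxygen groups of a day are not linked by shared mouse numbers. The number of arrays limits the precision. The steps were tested on simulated data. List genes were named as up to 5 called genes of lowest adjusted p per comparison among the red cell, platelet and white cell lists, and genes most like the globins as the 10 highest and 3 lowest correlations. The members, lists and tests were chosen with earlier results of these data known. Alternatives were other background, normalization, channel, slide, weighting and filter choices. Retina channel or deposited ratio with slide as a block were added after seeing the data.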

Additional observations from a re-analysis of the deposited data

Results flagged for a closer look

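The OIR effect differed between time points, by limma's test of the difference itself, for 6 results. From P12 to P17 the effect on the log2 offset ratio rose by 2.08 for *Hba-a1*, by 2.20 for *Hba-a2*, by 1.32 for *Hbb-bt* and by 0.30 for *Alas2*. From P17 to P28 it changed by -1.53 for *Hba-a1* and by -1.62 for *Hba-a2*. On the P17 slides that held both groups, the OIR mean was above the control mean on 6 of 6 for *Hba-a1*, *Hba-a2*, *Hbb-bt* and *Alas2*.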

How the results depend on the processing

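Leaving out each mouse in turn kept the P17 differences of *Hba-a1* (1.28 to 1.52) and *Hba-a2* (1.24 to 1.5) past the threshold. Without 1 mouse of the P17 OIR group *Hbb-bt* reached 0.95 (adjusted p = 0.0493), on P28 its difference ran from -0.0244 to 0.13, and without any of 5 mice the OIR change of *Hba-a2* from P12 to P28 missed the threshold (adjusted p up to 0.0844). No paired analysis was possible because the mouse numbers of the labels are unique. On P17 slide as a block left 0 members called, beside 1.5% of all probes. On that day 4 members were called without background subtraction, from the retina channel alone (3.11% of probes) and in 1 fit over 6 groups. On P12 1 was called from the retina channel (0.0718% of probes), also with slide as a block, and with array weights (0.0377%). For the effect change from P17 to P28 offset 0 and the deposited ratio with slide as a block called 1, and the retina channel with and without slide as a block 4. The retina channel with slide as a block called 1 for the effect change from P12 to P28 and 1 for the control change from P12 to P17. For the control change from P17 to P28, offset 0, the deposited (19.7% of probes) and the scanner ratio called 1. The deposited ratio with slide as a block called 0. For that from P12 to P28 these 4 choices called 0 (28.4% of probes in the deposited ratio). For the OIR change from P12 to P28 the deposited (42.8% of probes) and the scanner ratio called 2. The share of probes called differs between choices. A count given without that share cannot be read as a change in the members alone.

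Signs turned as follows, and the cause was not tested. On P28 *Hbb-bt* was -0.0897 without background subtraction, -0.51 at offset 0, -0.41 in the deposited and the scanner ratio and -0.14 in the deposited ratio with slide as a block. *Hba-a1* was 0.20 in the offset ratio, 0.26 in the retina channel and 0.00787 in the deposited ratio, each with the block. *Hba-a2* was 0.0708 in the retina channel, 0.10 with slide as a block, 0.30 with both and 0.12 in the deposited ratio with the block. In controls from P17 to P28 *Hba-a1* was -0.0825 and *Hbb-bt* -0.59 in the deposited and scanner ratios and *Hbb-bt* -0.63 with the block. From P12 to P28 *Hbb-bt* was -0.55 in both, and -0.37 with the block. The OIR change of *Hba-a2* from P12 to P28 was -0.0185 in the deposited and scanner ratios. The P17 spread of *Alas2* was -0.25 at offset 0. Correlations of *Alas2* were -0.0878 with *Hba-a1* and -0.10 with *Hba-a2* at offset 0, -0.0938 (deposited) and -0.0941 (scanner ratio) with *Hba-a1*, -0.20 in both with *Hba-a2*, and -0.0714 and -0.0864 with *Hbb-bt*. *Sptb* in the OIR group from P12 to P28 was -0.0129 at offset 0, -0.81 in the deposited and scanner ratios and -0.18 with the block, and in controls -0.22 from P12 to P28 (both ratios). From P17 to P28 it was -0.0755 at offset 0, -0.52 in both ratios and -0.27 with the block. The likeness of *P4htm* in the retina channel was -0.0228. The retina channel or deposited ratio with slide as a block were chosen after seeing the data. Signal over background limits *Alas2* and *Slc4a1*, well above it on 36 and 29 of 77 arrays. It also limits the ratio of *Hbb-bt*, whose reference spot was well above background on 38 of 77.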
